A study of Mus musculus with 6 samples.

Results

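The genes of the proteasome were followed in RNA from murine acute myeloid leukemias (AML) initiated by *Hoxa9* alone or by *Hoxa9* together with *IRX3*. Members were taken by gene symbol, as *Psma*, *Psmb*, *Psmc*, *Psmd*, *Psme*, *Psmf* or *Psmg* followed by a digit, with pseudogenes left out. The rule matched 50 of the 41128 genes listed and left out 3 pseudogenes. Of these, 49 encode subunits, activators, an inhibitor or assembly factors of the proteasome, and 1, *Psmc3ip*, does not. *Psmc3ip* encodes a cofactor of meiotic recombination and shares only part of its name with the subunit gene *Psmc3*. In all, 49 of the 50 passed the filter on low values that the tests used (RPKM over 0.5 in at least 1 mouse, where RPKM is reads scaled to gene length and library size). The remaining gene, *Psmb11*, was listed at 0 in every mouse.

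Both cohorts came from KIT+ bone marrow (BM) cells transduced with 2 retroviral vectors and grown under drug selection before transplantation into lethally irradiated congenic mice (strain C57BL/6). *Hoxa9*/MTV mice received cells carrying *Hoxa9* and the empty vector MTV, and *Hoxa9*/*IRX3* mice received cells carrying *Hoxa9* and a tagged human *IRX3* cDNA. Unfractionated BM of the recipients' own allele type was given alongside in both cohorts, so normal recipient cells were present in every host. Donor-derived KIT+Gr1+ cells were sorted from BM once the mice were sick. There were 3 mice in each cohort, 1.1, 1.2 and 1.4 for *Hoxa9*/MTV and 3.2, 3.3 and 3.5 for *Hoxa9*/*IRX3*, with 1 library from each. Both cohorts carried *Hoxa9*, so the comparison concerns the addition of *IRX3*, and no cells without *Hoxa9* were measured.

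The proteasome is the protease complex that degrades proteins tagged with ubiquitin. Its barrel-shaped core particle is built of rings of alpha subunits, which gate the entrance, and rings of beta subunits, of which *Psmb6*, *Psmb7* and *Psmb5* encode the ones with caspase-like, trypsin-like and chymotrypsin-like active sites. A regulatory particle, with a base that holds a ring of ATPases and a lid that holds the deubiquitinase encoded by *Psmd14*, recognizes and unfolds substrates. In hematopoietic cells, and in other cells exposed to interferon, the active-site subunits can be exchanged for *Psmb9*, *Psmb10* and *Psmb8*, which gives the immunoproteasome, a producer of peptides for MHC class I. PA28 alpha/beta, encoded by *Psme1* and *Psme2*, is an interferon-inducible cap that opens the core particle.

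The libraries held between 7979246 and 9803621 reads, as recovered from the RPKM values. *Irx3*, which can take up reads of the human cDNA where the sequences match, had 0 reads in each *Hoxa9*/MTV mouse. In mice 3.2, 3.3 and 3.5 it stood at 15.1, 0.421 and 0.148 RPKM, about 474, 15 and 4 reads. The reads recovered for this gene were not whole numbers, so they are approximate. *Hoxa9* stood between 154 and 363 RPKM in all 6 mice. Across the 9522 protein-coding genes tested with limma, 175 were higher in *Hoxa9*/*IRX3* mice (1.84% of those tested) and 335 were lower (3.52%) at a Benjamini-Hochberg adjusted p under 0.05. With quantile normalization the split was 234 higher and 274 lower. Of the markers of the sort, *Kit* was present at 1.63 to 3.12 RPKM and *Ly6c2* at 412.7 to 843.9 RPKM, whereas *Ly6g* did not pass 1.42 RPKM in any mouse. Defining genes of B cells (*Ms4a1*, *Pax5*, *Ebf1*), of T cells (*Cd3d*, *Cd3e*, *Cd3g*) and of red cells (*Hba-a1*, *Hba-a2*) were under 0.05 RPKM in all 6 mice. Other genes of those lists were not. *Cd79b* ranged from 6.11 to 7.07 RPKM across the *Hoxa9*/MTV cohort and from 0.149 to 2.31 RPKM across the *Hoxa9*/*IRX3* cohort. *Cd79a* reached 0.258 RPKM, in mouse 3.2. *Nkg7* ranged from 22.6 to 32.9 RPKM across the *Hoxa9*/MTV cohort, beside 100.2, 14.9 and 482.0 RPKM for mice 3.2, 3.3 and 3.5. The red cell gene *Klf1* ranged from 0.0307 to 0.134 RPKM across the *Hoxa9*/MTV cohort, beside 0.268, 0.303 and 0.298 RPKM for mice 3.2, 3.3 and 3.5. It had only 1 to 10 reads in each mouse. *Hbb-bs* was at 0.072 RPKM in mouse 1.1.

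No proteasome gene differed between the cohorts at an adjusted p under 0.05 (limma). The 49 tested members were 48 proteasome genes and *Psmc3ip*. At an unadjusted p under 0.05, 3 of 49 were higher (6.12%, against 8.34% of all tested genes) and 6 were lower (12.2%, against 16.0%). In 3 members every *Hoxa9*/*IRX3* mouse lay above every *Hoxa9*/MTV mouse (6.12%, against 12.2% of all tested genes), and in 12 every one lay below (24.5%, against 21.6%). The shares of members were thus at or under the shares of all tested genes, apart from the last, which was near it. limma voom on the recovered reads also called none in either direction, with 2 higher and 6 lower at an unadjusted p under 0.05.

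The changes were small. All fold changes are differences of log2(RPKM + 0.5), *Hoxa9*/*IRX3* minus *Hoxa9*/MTV, which understates the change of genes with low values. For the 41 members that are neither immunoproteasome, PA28 alpha/beta nor tissue-specific genes, called constitutive here, the median log2 change was -0.083, beside -0.063 over all tested genes, and after quantile normalization it was 0.002, beside 0.017. Of these 41 genes, 27 had a negative estimate (65.9%, against 57.5% of all tested genes) and 14 a positive one. For 39 of the 41 the 95% interval lay inside a 2-fold change either way, with *Psmb3* and *Psmg2* the exceptions. The proteasome genes together took 0.26%, 0.27% and 0.283% of the library in mice 1.1, 1.2 and 1.4, and 0.247%, 0.265% and 0.242% in mice 3.2, 3.3 and 3.5. Those ranges overlapped.

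**Figure D1:**
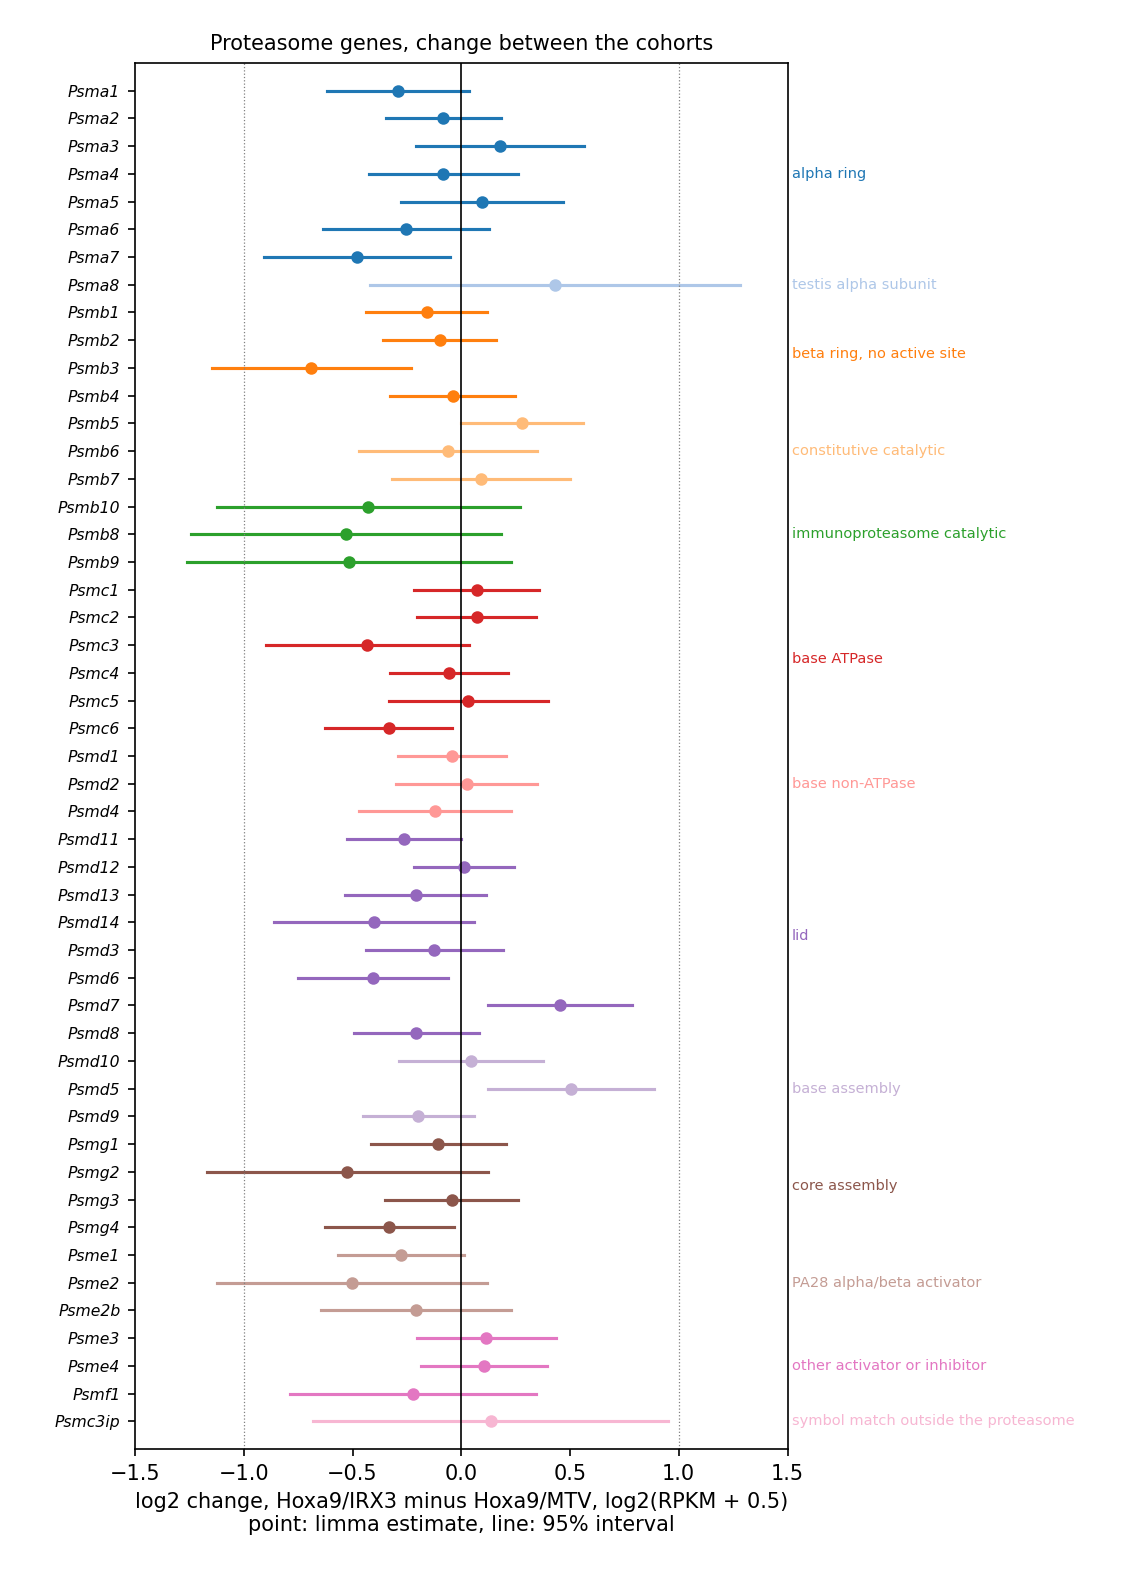
Log2 change between the cohorts for the 49 tested genes, grouped by role. Points are limma estimates on log2(RPKM + 0.5), lines are 95% intervals, and dotted lines mark a 2-fold change; the estimates ran from -0.69 for *Psmb3* to 0.505 for *Psmd5*, and no gene passed the adjusted threshold.

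Of the 3 constitutive active-site subunits, 1 was higher without overlap between the cohorts (33.3%, against 12.2% of all tested genes). The other 2 overlapped, and none passed the adjusted threshold. *Psmb5* (chymotrypsin-like, chromosome 14, 54614119 to 54618022, GRCm38) measured 4.64, 4.35 and 4.13 RPKM in the *Hoxa9*/MTV cohort, beside 4.95, 5.79 and 5.53 RPKM in the *Hoxa9*/*IRX3* cohort. All 3 *Hoxa9*/*IRX3* mice were above the other cohort, with a log2 change of 0.28 ± 0.12 (SE, n = 3 and 3; limma adjusted p = 0.204). *Psmb6* (caspase-like, chromosome 11, 70525367 to 70527858) stood at 9.12, 11.3 and 11.9 against 11.0, 11.4 and 8.499 RPKM. Its log2 change was -0.06 ± 0.17 (limma adjusted p = 0.853), and it was 0.025 with median-of-ratios scaling. *Psmb7* (trypsin-like, chromosome 2, 38588036 to 38644087) stood at 0.232, 0.296 and 0.384 against 0.248, 0.324 and 0.508 RPKM, with 115 to 227 reads in each mouse. The cohorts overlapped for *Psmb6* and *Psmb7*. *Mir686* lies inside *Psmb5* on the same strand, and 40.0% of the 75-base windows of the *Psmb5* transcript also occur in other annotated genes. Part of its reads could therefore have been assigned elsewhere, or dropped when the authors removed alignments of low quality.

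The immunoproteasome subunits had negative estimates and differed widely among the *Hoxa9*/*IRX3* mice. *Psmb8*, the chymotrypsin-like immunoproteasome subunit (chromosome 17, 34197721 to 34201454), stood at 40.6, 44.9 and 48.0 RPKM in mice 1.1, 1.2 and 1.4. In mice 3.2, 3.3 and 3.5 it stood at 19.5, 44.9 and 32.6 RPKM. Mouse 3.2 was lowest, mouse 3.5 lay between, and mouse 3.3 was inside the *Hoxa9*/MTV range. *Psmb9*, which takes the place of *Psmb6* (chromosome 17, 34181987 to 34187764), stood at 12.1, 12.5 and 11.99 against 5.35, 13.8 and 7.88 RPKM. *Psmb10*, the trypsin-like counterpart (chromosome 8, 105935735 to 105938444), stood at 10.6, 11.3 and 13.0 against 5.46, 12.9 and 8.65 RPKM. The order of the 3 *Hoxa9*/*IRX3* mice was therefore identical for the 3 genes, although *Psmb10* lies on another chromosome than *Psmb8* and *Psmb9*. Among other members, *Psmb5*, *Psmb4* and *Psma7* had that order too, over narrower ranges, whereas *Psmb6* and *Psmb7* did not. In mice 3.2, 3.3 and 3.5, *Psmb5* stood at 113.0%, 132.0% and 126.0% of the *Hoxa9*/MTV mean, and *Psma7* at 54.3%, 85.4% and 73.2%.

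Relative to the *Hoxa9*/MTV mean, mouse 3.2 had 43.8% of *Psmb8*, 43.9% of *Psmb9* and 46.9% of *Psmb10*. Mouse 3.5 had 73.3%, 64.6% and 74.3%, and mouse 3.3 had 101.0%, 113.0% and 110.0%, in that order of genes. The log2 changes between cohorts were -0.53 ± 0.30 for *Psmb8* (95% interval -1.24 to 0.18), -0.52 ± 0.31 for *Psmb9* (-1.26 to 0.23) and -0.43 ± 0.29 for *Psmb10* (-1.12 to 0.27). The limma adjusted p-values were 0.32, 0.351 and 0.403, and the intervals included both no change and a 2-fold fall. Without mouse 3.3 the log2 changes were -0.80, -0.86 and -0.71, with limma adjusted p-values of 0.113, 0.0543 and 0.116. Without mouse 3.2 they were -0.21, -0.21 and -0.13, with limma adjusted p-values of 0.501, 0.593 and 0.706. A lower level in these mixed populations can come from fewer cells that express a gene or from less RNA in each cell, and bulk values cannot separate the 2.

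**Figure D2:**
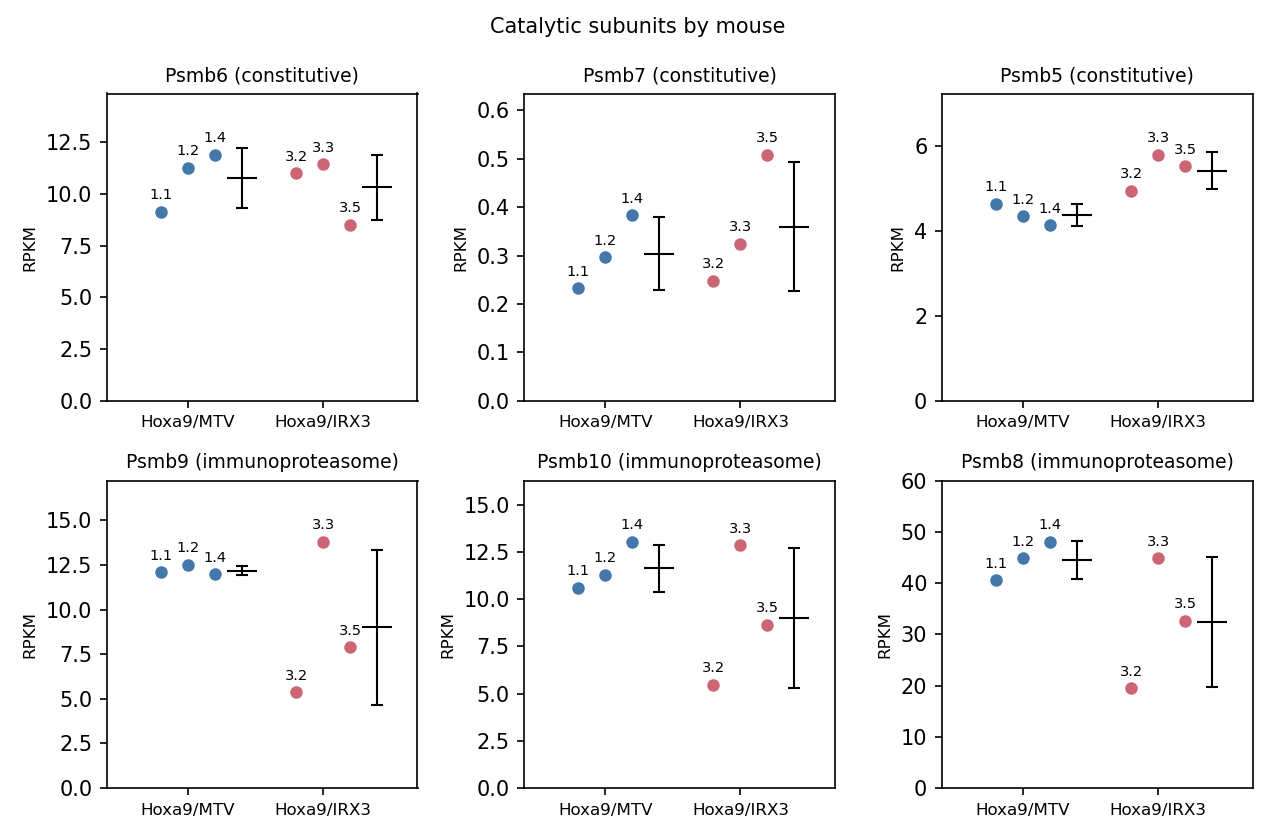
RPKM of the active-site subunits in each mouse, with the constitutive genes in the upper row and the immunoproteasome counterpart of each below it. Points are mice (blue, *Hoxa9*/MTV; red, *Hoxa9*/*IRX3*), bars are cohort means with SD (n = 3), and each axis starts at 0; mouse 3.2 was lowest for *Psmb9*, *Psmb10* and *Psmb8*, while mouse 3.3 lay within or above the *Hoxa9*/MTV range for all 3.

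Levels of the active-site genes were compared with each other after dividing by exon length, since RPKM here used the whole gene span with its introns. Per kilobase of exon, *Psmb8* was the most abundant active-site gene in *Hoxa9*/MTV mice at 49.1 ± 4.1 RPKM (SD, n = 3). *Psmb9* and *Psmb10* followed at 19.2 ± 0.43 and 18.5 ± 2.0, beside 18.99 ± 1.10 for *Psmb5*, 14.3 ± 1.9 for *Psmb6* and 4.98 ± 1.2 for *Psmb7*. This scale depends on the exon length annotated and on how many reads an unspliced aligner could place. The level and ratios of *Psmb5* also depend on how reads shared with other genes were handled. Counted instead as reads per 75-base window lying within 1 exon, a scale added after the data were seen, *Psmb8* was still highest in *Hoxa9*/MTV mice, at 1.13, 1.17 and 1.47 reads per window. *Psmb9* had 0.675, 0.657 and 0.733, *Psmb10* 0.346, 0.346 and 0.466 and *Psmb5* 0.236, 0.208 and 0.23, so the order of genes below *Psmb8* differed between the scales. On the window scale, *Psmb8* stood above *Psmb5* (ratios 4.79, 5.64 and 6.36) and *Psmb10* above *Psmb7* (1.76, 1.46 and 1.31) in each *Hoxa9*/MTV mouse. *Psmb9* was near *Psmb6* (1.21, 1.01 and 0.923).

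The ratio of each immunoproteasome subunit to the constitutive subunit it replaces was compared with an exact permutation test over the 6 mice, two-sided, in a family of 3 ratios. On the exon scale the *Psmb8* to *Psmb5* ratio was 2.23, 2.62 and 2.95 in *Hoxa9*/MTV mice and 1.0, 1.97 and 1.5 in mice 3.2, 3.3 and 3.5. The cohorts did not overlap, and the difference of the mean log2 ratios was -0.85 (exact permutation p = 0.1, the smallest this design can give; adjusted over the family 0.3). The *Psmb9* to *Psmb6* ratio was 1.57, 1.32 and 1.2 against 0.577, 1.43 and 1.1, a difference of -0.48 in log2 (exact permutation p = 0.3; adjusted 0.3). The *Psmb10* to *Psmb7* ratio was 4.44, 3.7 and 3.3 against 2.14, 3.85 and 1.65, a difference of -0.66 in log2 (exact permutation p = 0.3; adjusted 0.3). For both of these, mouse 3.3 lay inside the *Hoxa9*/MTV range. With 3 mice against 3 no ratio could reach 0.05.

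Within the immunoproteasome the proportions varied little between mice. The *Psmb10* to *Psmb8* ratio, on the exon scale, was 0.376, 0.362 and 0.391 in *Hoxa9*/MTV mice and 0.403, 0.412 and 0.382 in *Hoxa9*/*IRX3* mice. The *Psmb9* to *Psmb8* ratio was 0.425, 0.399 and 0.357 against 0.392, 0.439 and 0.345. The lowest and highest of these values lay much closer together than those of *Psmb8* itself, which ran from 19.5 to 48.0 RPKM.

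**Figure D3:**
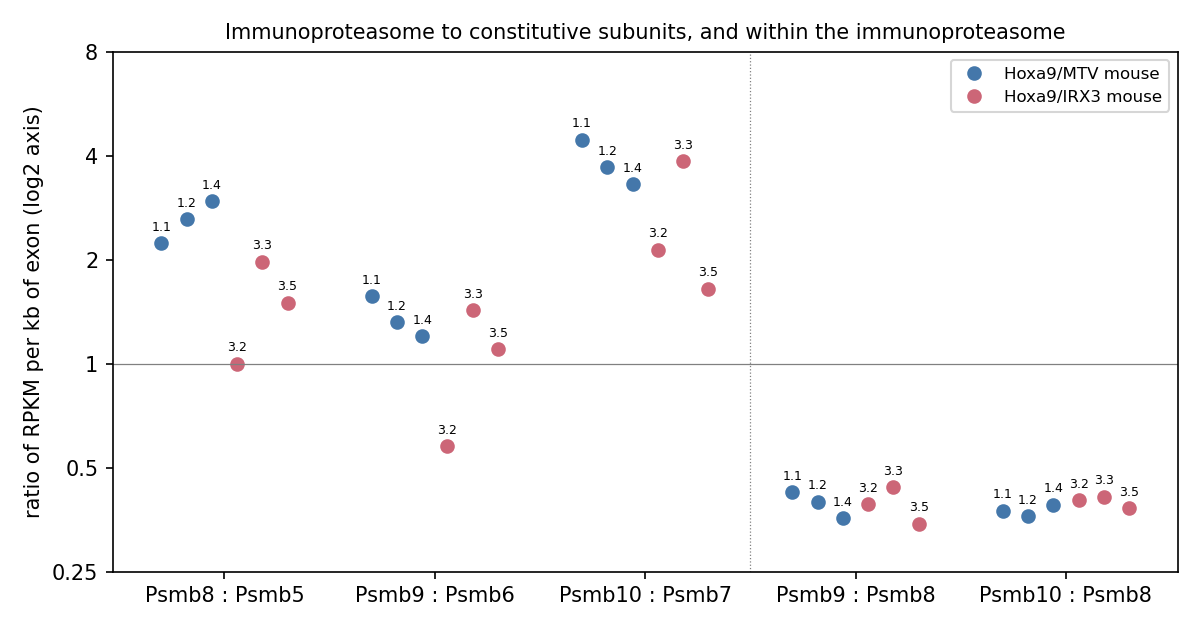
Ratios of RPKM per kilobase of exon in each mouse, on a log2 axis. Left of the dotted line, each immunoproteasome subunit is divided by the constitutive subunit it replaces; right of it, *Psmb9* and *Psmb10* are divided by *Psmb8*, where all 6 mice lay between 0.345 and 0.439.

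*Psmb8* and *Psmb9* are neighbours in the MHC region, beside the peptide transporter genes *Tap1* and *Tap2*. *Psmb9* and *Tap1* run in opposite directions and share 212 bases at their starts as annotated, and whether counting used strand was not stated. *Tap1* stood at 23.7, 24.2 and 21.9 RPKM in *Hoxa9*/MTV mice and 12.8, 32.0 and 18.9 RPKM in mice 3.2, 3.3 and 3.5, in the order of mice seen for *Psmb9*. The *Psmb9* to *Tap1* ratio on the exon scale was 0.455, 0.462 and 0.49 against 0.374, 0.385 and 0.372, so the cohorts did not overlap in it. This ratio was examined after its values were seen and was not tested. *Tap2* stood at 17.5, 20.03 and 22.9 against 10.4, 15.0 and 18.5 RPKM, with mouse 3.5 rather than mouse 3.3 highest in its cohort.

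*Irf8*, which encodes a transcription factor of monocyte and dendritic cell development, had 39.6, 27.0 and 25.5 RPKM in the *Hoxa9*/MTV cohort, beside 2.61, 63.1 and 2.98 RPKM for mice 3.2, 3.3 and 3.5. *Csf1r*, which encodes the receptor for macrophage colony-stimulating factor, was at 14.3% and 117.0% of the *Hoxa9*/MTV mean in mice 3.2 and 3.3 and at its lowest in mouse 3.5. The summed level of the monocyte and macrophage list (10 genes found) was 167.3 to 188.7 RPKM in *Hoxa9*/MTV mice and 25.9, 94.2 and 19.1 RPKM in mice 3.2, 3.3 and 3.5. Without *Irf8* the other 9 genes summed to 135.0 to 163.0 RPKM in *Hoxa9*/MTV mice and to 23.3, 31.0 and 16.2 RPKM in those mice. On this scale the high sum of mouse 3.3 thus came mostly from *Irf8*. These sums use RPKM over the gene span, in which genes with long introns count little. *Ccr2*, at 4.99, 3.69 and 6.48 RPKM, and *Ms4a6c*, at 0.941, 0.199 and 1.26 RPKM, were lowest in mouse 3.3. *Cd68* (log2 change -2.68; limma adjusted p = 0.013), *Ccr2* (-2.06; 0.008), *Ms4a6c* (-4.53; 0.003) and *Klf4* (-2.24; 0.039) of that list fell. The part of these cells in the level of the immunoproteasome genes was not tested.

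The summed level of the 20 interferon response genes was 32.8 to 44.1 RPKM in *Hoxa9*/MTV mice and 33.3, 75.2 and 40.6 RPKM in mice 3.2, 3.3 and 3.5. This sum likewise uses RPKM over the gene span. None of the 18 tested passed the adjusted threshold, 4 were higher (22.2%, against 8.34% of all tested genes) and 0 lower (against 16.0%) at an unadjusted p under 0.05, and the median log2 change was 0.481. *Irf7* was at 43.0%, 595.0% and 155.0% of the *Hoxa9*/MTV mean in those mice. *Irf1*, a transcription factor that interferon induces, stood at 4.25, 3.24 and 8.21 against 2.00, 3.56 and 4.47 RPKM, with mouse 3.2 lowest. The part of an interferon response in the level of these subunits was not tested.

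**Figure D4:**
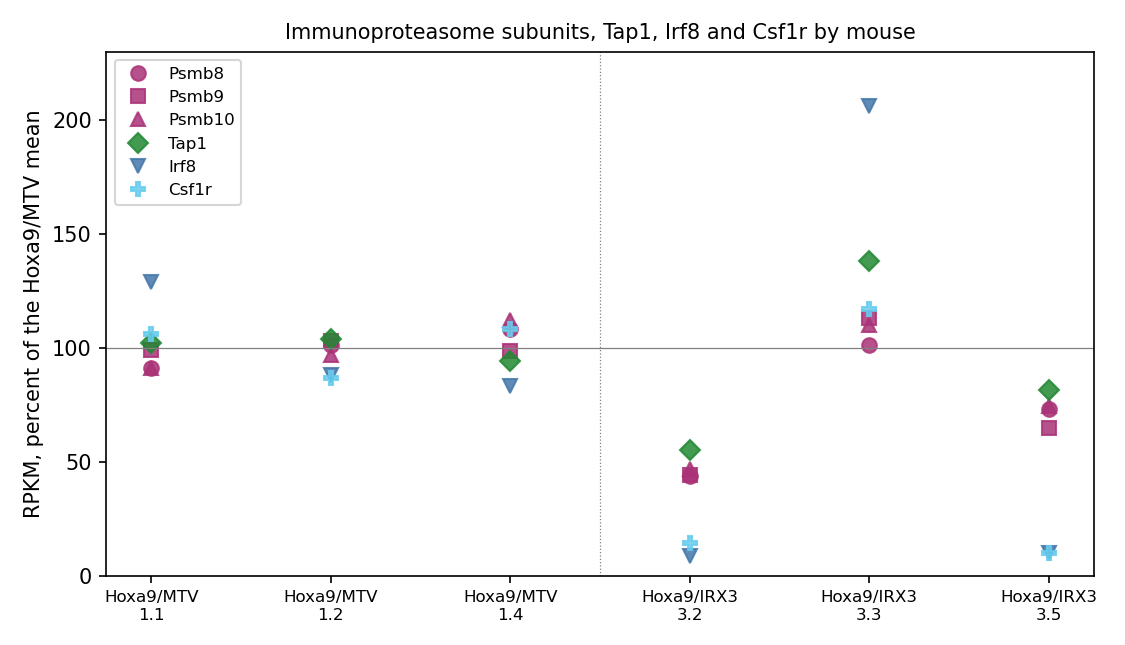
RPKM of *Psmb8*, *Psmb9*, *Psmb10*, *Tap1*, *Irf8* and *Csf1r* in each mouse, as a percent of the *Hoxa9*/MTV mean of that gene. In mouse 3.2 the subunits stood at 43.8% to 46.9% and *Irf8* at 8.49%, whereas in mouse 3.3 the subunits stood at 101.0% to 113.0% and *Irf8* at 206.0%. Mouse 3.5 did not follow this parallel, with *Irf8* at 9.71%, near mouse 3.2, but the subunits at 64.6% to 74.3%. *Ccr2* and *Ms4a6c* of the monocyte and macrophage list, which were lowest in mouse 3.3, are not shown.

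The promoters of the immunoproteasome subunits and of a pair of the constitutive subunits they replace are shown. The 3 immunoproteasome genes varied together between mice, whereas their counterparts differed from each other in the order of mice. Each is the 250 bases before the RefSeq gene start (GRCm38.p6), written 5′ to 3′ along the gene. Capitals mark matches to TGACNNNGC, the core of the antioxidant response element to which NFE2L1 and NFE2L2 can bind, or to TTCNNNGAA, the GAS element of interferon-responsive promoters.
Psmb8, chr17:34197945-34198194, plus strand: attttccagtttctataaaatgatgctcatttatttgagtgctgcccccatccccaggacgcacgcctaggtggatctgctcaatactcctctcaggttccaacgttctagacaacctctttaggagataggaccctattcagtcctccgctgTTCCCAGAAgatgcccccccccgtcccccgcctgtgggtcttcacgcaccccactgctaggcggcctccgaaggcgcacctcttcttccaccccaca
Psmb9, chr17:34187331-34187580, minus strand: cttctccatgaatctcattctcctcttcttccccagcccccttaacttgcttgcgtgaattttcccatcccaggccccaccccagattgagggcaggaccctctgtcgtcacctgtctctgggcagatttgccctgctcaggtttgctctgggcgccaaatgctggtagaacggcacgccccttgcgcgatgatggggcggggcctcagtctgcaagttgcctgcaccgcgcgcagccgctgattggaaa
Psmb10, chr8:105938393-105938642, minus strand: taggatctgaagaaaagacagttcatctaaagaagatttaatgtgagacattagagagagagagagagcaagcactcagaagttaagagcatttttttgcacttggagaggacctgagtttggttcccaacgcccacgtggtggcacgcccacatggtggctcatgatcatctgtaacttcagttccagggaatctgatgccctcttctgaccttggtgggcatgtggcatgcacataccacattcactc
Psmb5, chr14:54617996-54618245, minus strand: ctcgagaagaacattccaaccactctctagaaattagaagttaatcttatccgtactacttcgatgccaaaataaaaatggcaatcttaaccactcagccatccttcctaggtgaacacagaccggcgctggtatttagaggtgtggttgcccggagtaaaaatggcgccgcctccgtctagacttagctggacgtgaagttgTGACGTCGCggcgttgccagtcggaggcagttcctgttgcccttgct
Psmb6, chr11:70525107-70525356, plus strand: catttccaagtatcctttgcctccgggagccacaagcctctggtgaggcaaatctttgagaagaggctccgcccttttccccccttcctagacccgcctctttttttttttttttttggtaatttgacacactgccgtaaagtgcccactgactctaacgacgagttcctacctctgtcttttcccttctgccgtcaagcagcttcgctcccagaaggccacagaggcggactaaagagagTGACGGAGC

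Motifs were searched on both strands from 250 bases before to 50 after the start, in 42 of the 50 members and in all 32851 RefSeq promoters. TGACNNNGC was present in 12.4% of all promoters, in 6 of 34 constitutive members (17.6%) and in 0 of the 3 immunoproteasome genes. The matches in *Psmb5* and *Psmb6* began at -47 and -9 from the start. TTCNNNGAA was present in 8.3% of all promoters, in 2 of 34 constitutive members and in *Psmb8*, where it began at -97. GAAANNGAA, part of the interferon-stimulated response element, was present in 8.6% of all promoters, in 5 of 34 constitutive members (14.7%), in *Psme1* and in 0 of the 3 immunoproteasome genes. CCAAT was present in 37.4% of all promoters, in 12 of 34 constitutive members (35.3%) and in *Psmb9*. TTCNNNGAA and GAAANNGAA can overlap. A match is a description of the letters only, and their absence from this window says nothing of binding elsewhere.

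The PA28 alpha/beta genes were lower in some *Hoxa9*/*IRX3* mice, none past the adjusted threshold. *Psme1* stood at 6.80, 6.78 and 7.13 RPKM in *Hoxa9*/MTV mice and 5.598, 6.20 and 5.08 RPKM in *Hoxa9*/*IRX3* mice, without overlap (log2 change -0.28 ± 0.12; limma adjusted p = 0.218). *Psme2* stood at 0.954, 0.852 and 0.985 against 0.369, 1.03 and 0.273 RPKM, from only 8 to 37 reads. Mouse 3.3 was again at the *Hoxa9*/MTV level, and mice 3.2 and 3.5 were at 39.6% and 29.3% of its mean. The log2 change of *Psme2* was -0.50 ± 0.26 (limma adjusted p = 0.284). Without mouse 3.3, the *Hoxa9*/*IRX3* mouse with the highest value, it was -0.80 (limma adjusted p = 0.0297). With any other mouse left out it ranged from -0.543 to -0.311, with limma adjusted p-values of 0.411 to 0.518.

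*Psme2* shares its sequence with *Psme2b*, an intronless copy on chromosome 11. The 2 transcripts were identical at 789 of 794 aligned bases (99.4%), and 51.7% of the 75-base windows of *Psme2* occur exactly in *Psme2b*. *Psme2* has 11 exons, and only 30.7% of its windows lie within a single exon, which matters because the aligner used does not split reads across introns. *Psme2b* carried 777, 741 and 824 reads in *Hoxa9*/MTV mice and 525, 815 and 698 in *Hoxa9*/*IRX3* mice. Its level, 104.4 ± 2.4 RPKM per kilobase of exon (SD, n = 3) beside 1.94 ± 0.14 for *Psme2*, made it the most abundant member as listed. Reads of the 2 genes cannot be told apart reliably, and the values of both are uncertain.

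The alpha ring, which gates the core particle, was near the general level. Of its 7 estimates, 5 were negative (71.4%, against 57.5% of all tested genes), and the median log2 change was -0.083. *Psma7* stood at 8.08, 8.09 and 9.24 RPKM against 4.599, 7.24 and 6.20 RPKM, without overlap (log2 change -0.48 ± 0.18; limma adjusted p = 0.168). *Psma1* also did not overlap, at 4.54, 4.18 and 4.56 against 4.18, 3.42 and 3.06 RPKM, although mice 1.2 and 3.2 were almost equal. Those 2 of 7 genes were 28.6%, against 21.6% of all tested genes lower without overlap. The other 5 genes overlapped between the cohorts.

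Among the beta subunits without an active site, *Psmb3* had the most negative estimate of all members. It stood at 2.24, 2.23 and 3.39 RPKM in *Hoxa9*/MTV mice and 1.23, 1.80 and 1.24 RPKM in *Hoxa9*/*IRX3* mice. The cohorts did not overlap, and the log2 change was -0.69 ± 0.19 (limma adjusted p = 0.0884). Of its 75-base windows, 33.1% occur in other annotated genes. *Psmb4* differed little between mice, at 32.7, 33.6 and 33.1 against 31.0, 33.1 and 32.6 RPKM.

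In the base, which unfolds substrates, the 6 ATPase genes had a median log2 change of -0.012 and the 3 non-ATPase genes, which include a ubiquitin receptor and scaffolds, -0.042. *Psmc6* stood at 2.77, 2.502 and 2.91 against 2.13, 2.29 and 1.78 RPKM, without overlap (log2 change -0.33 ± 0.12; limma adjusted p = 0.16). *Psmc3* stood at 4.40, 4.40 and 4.59 against 4.05, 3.47 and 2.25 RPKM, also without overlap (-0.43 ± 0.20; limma adjusted p = 0.232). Those 2 of 6 ATPase genes were 33.3%, against 21.6% of all tested genes lower without overlap. *Slc39a13* overlaps *Psmc3* on the other strand and was likewise lowest in mouse 3.5, at 0.784 RPKM.

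The lid held the most diverse values, from a log2 change of -0.405 to 0.455 over 8 genes. *Psmd7*, a structural subunit that pairs with the deubiquitinase, stood at 13.0, 13.5 and 14.0 RPKM in *Hoxa9*/MTV mice and 21.2, 16.7 and 18.5 RPKM in *Hoxa9*/*IRX3* mice. Every *Hoxa9*/*IRX3* mouse was above the other cohort, with a log2 change of 0.46 ± 0.14 (limma adjusted p = 0.11). *Psmd14*, the deubiquitinase itself, had 470, 463 and 594 reads in *Hoxa9*/MTV mice and 497, 226 and 175 in mice 3.2, 3.3 and 3.5. Mouse 3.2 was at 98.8% of the *Hoxa9*/MTV mean, and mice 3.3 and 3.5 were at 40.6% and 38.6%, an order of mice unlike that of the immunoproteasome. The partners thus had estimates of opposite sign, -0.40 ± 0.19 for *Psmd14* (limma adjusted p = 0.253). *Psmd6* stood at 7.12, 9.62 and 8.93 against 6.49, 6.04 and 6.35 RPKM, without overlap (-0.41 ± 0.14, limma adjusted p = 0.152). *Psmd8* and *Psmd11* were also lower without overlap. In all, 3 of 8 lid genes were lower without overlap (37.5%, against 21.6% of all tested genes) and 1 was higher (12.5%, against 12.2%).

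Of the chaperones that assemble the base, *Psmd5* had the most positive estimate of all members. It stood at 2.10, 2.31 and 2.44 RPKM in *Hoxa9*/MTV mice and 3.08, 3.00 and 4.42 RPKM in *Hoxa9*/*IRX3* mice. The cohorts did not overlap, and the log2 change was 0.51 ± 0.16 (limma adjusted p = 0.12). *Psmd10* overlapped and *Psmd9* was lower without overlap (log2 change -0.20 ± 0.11; limma adjusted p = 0.306). The 4 chaperones of the core particle, *Psmg1* to *Psmg4*, all had negative estimates, with a median of -0.218. Over all tested genes, 57.5% of estimates were negative. *Psmg2* stood at 2.21, 2.204 and 2.35 against 1.91, 1.88 and 0.718 RPKM, with a log2 change of -0.53 ± 0.27 (limma adjusted p = 0.282) and with mouse 3.5 lowest. *Psmg4* stood at 1.40, 1.16 and 1.27 against 1.08, 0.785 and 0.882 RPKM (-0.33 ± 0.12; limma adjusted p = 0.169).

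The remaining activators and the inhibitor overlapped between the cohorts. *Psme3*, which encodes the nuclear cap PA28 gamma, was among the most abundant members at 77.1 ± 6.6 against 83.4 ± 4.1 RPKM per kilobase of exon (SD, n = 3 each). The log2 changes were 0.12 ± 0.13 for *Psme3*, 0.10 ± 0.12 for *Psme4*, which encodes the activator PA200, and -0.22 ± 0.24 for the inhibitor *Psmf1*.

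The tissue-specific subunits were near absent, with 1 exception. *Psmb11*, the thymus subunit, had 0 reads in all 6 mice. *Psma8*, the testis counterpart of *Psma7*, had 0 reads in each *Hoxa9*/MTV mouse and about 7, 379 and 0 reads in mice 3.2, 3.3 and 3.5. Its reads thus came almost wholly from 1 mouse (log2 change 0.43 ± 0.36; limma adjusted p = 0.491), and where in the gene they lay was not analysed here. *Psmc3ip* stood at 2.00, 1.33 and 1.26 against 1.47, 3.19 and 0.971 RPKM (0.14 ± 0.34; limma adjusted p = 0.835), with mouse 3.3 highest, and without that mouse the estimate was -0.24.

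**Figure D5:**
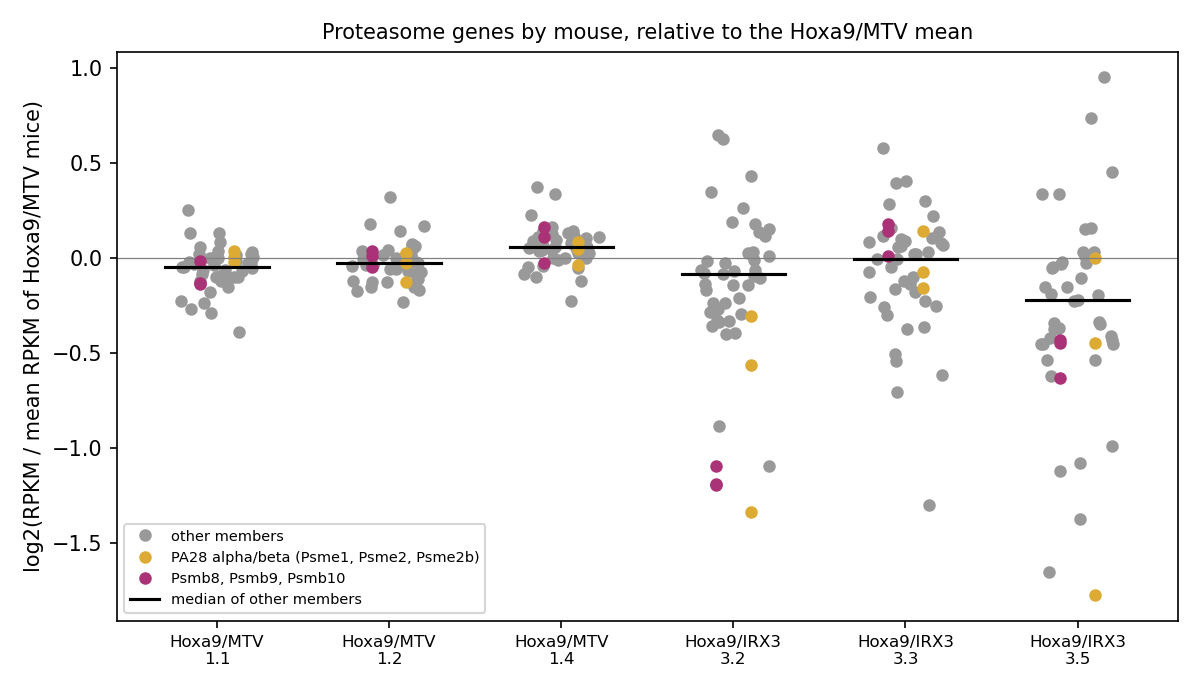
Log2 ratio of RPKM to the *Hoxa9*/MTV mean of the same gene, by mouse, for the proteasome genes other than the tissue-specific subunits. Grey points are the 41 constitutive members with their median as a bar (-0.084, -0.004 and -0.221 in mice 3.2, 3.3 and 3.5), and purple and yellow points are the immunoproteasome and PA28 alpha/beta genes.

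By mouse, the constitutive members lay lowest in mouse 3.5. Of the 41, 26 were below the lowest *Hoxa9*/MTV mouse there and 7 above the highest, compared with 20 and 9 in mouse 3.2 and 17 and 10 in mouse 3.3. Shares over all tested genes were not computed for single mice. These counts therefore cannot show whether the proteasome genes differed from other genes. In mouse 3.2 the constitutive median was -0.084 in log2 while the immunoproteasome median was -1.187. In mouse 3.5 the medians were -0.221 and -0.448, and in mouse 3.3 they were -0.004 and 0.143. Mouse 3.5 also had the smallest library and the smallest median-of-ratios factor, 0.914 against 1.01 to 1.06 in the others.

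Genes that act with the proteasome gave no call at the adjusted threshold either. Of 6 tested genes for the transcription factors of proteasome genes and their control, 0 were called. All 6 estimates were negative (median log2 change -0.237), as were 57.5% of those over all tested genes. *Nfe2l1*, the factor that raises proteasome transcription when proteolysis is impaired, stood at 20.3, 18.4 and 19.95 RPKM against 16.7, 14.9 and 16.7 RPKM, without overlap. Of 8 further proteasome genes outside the symbol rule, 0 were called and the median was -0.025. *Pomp*, the maturation factor of the core particle, stood at 1.51, 1.59 and 1.51 against 0.954, 1.78 and 1.09 RPKM, with mouse 3.2 lowest and mouse 3.3 highest, as in the immunoproteasome genes.

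Of 13 tested genes for ubiquitin and its delivery to the proteasome, 0 were called, with 2 higher (15.4%, against 8.34% of all tested genes) and 3 lower (23.1%, against 16.0%) at an unadjusted p under 0.05. *Uba1*, the main ubiquitin-activating enzyme, stood at 9.04, 9.15 and 7.74 RPKM in *Hoxa9*/MTV mice and 12.1, 13.0 and 11.6 RPKM in *Hoxa9*/*IRX3* mice, without overlap. Of 10 genes for class I peptide loading, 0 were called, 0 passed an unadjusted p under 0.05, and the median log2 change was 0.037. *B2m*, the light chain of class I, overlapped at 223.6 to 258.7 against 196.9 to 264.2 RPKM. Over all tested genes, 1.84% were called higher and 3.52% lower. Of the remaining marker lists, 1 of 12 neutrophil genes was called higher (*Elane*, log2 change 1.91, limma adjusted p = 0.014). Neutrophil estimates were mixed, 8 positive and 4 negative, with 3 higher and 1 lower at an unadjusted p under 0.05. Among dendritic cell and class II genes, 1 of 4 fell (*Flt3*, -1.35, limma adjusted p = 0.01). The 1 B cell gene tested fell (*Cd79b*, -2.65, limma adjusted p = 0.038). Of 6 sort markers tested, *Ly6g* rose (1.35; 0.021) and *Cd34* fell (-3.84; 0.021). The 1 T and NK cell gene tested, *Nkg7*, was not called, and no red cell gene passed the filter. With 1 *Hoxa9*/MTV mouse left out in turn, each of the called marker genes except *Ms4a6c* missed the threshold in at least 1 fit.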

How the data were processed

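RNA-seq of sorted KIT+Gr1+ cells from 6 mice (3 per cohort, cohorts taken from the sample labels) was analyzed. The authors made strand-specific polyA libraries with paired reads of 75 bases, aligned them to GRCm38 with Bowtie2 2.2.1, which does not split reads across introns, filtered them with SAMtools 0.1.19, and deposited RPKM per gene of Ensembl v76. RPKM was scaled over the whole gene span, so intron-rich genes read low. No sample column was left unused (0). Reads were recovered from the RPKM, and 65.0% of tested genes gave whole reads within 0.01. For the others, which include *Irx3*, *Psma8*, *Psmb5*, *Psmb9* and *Psmb10*, the read numbers are approximate. Assigned reads summed to 104.0% to 105.4% of each library, where both the reads and the library sizes are estimates. Why the sums passed the library size was not tested. Of the 50 members, 24 overlap another gene.

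GENCODE M21 gave gene type, position and exon length, and RefSeq gave promoters. limma 3.58.1 (R 4.3.3, variance trend) was fitted to log2(RPKM + 0.5) of 9522 protein-coding genes with RPKM over 0.5 in at least 1 mouse, with Benjamini-Hochberg adjustment over all of them, and was tested on simulated data. Ratios were compared with exact permutation tests (SciPy 1.17.1). Each mouse is 1 replicate, and the depths given limit low genes to counting error. Alternatives were other pseudocounts, filters, scalings, gene types, lengths, tests, and leaving out each mouse.

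The members and lists were chosen with earlier results of these data known. Named by rule were the active-site subunits, *Psme1*, *Psme2*, called members, the 3 largest rises and falls, members not passing the filter, *Psmc3ip*, called list genes, *Hoxa9* and *Irx3*. The other genes named were chosen after their values were seen.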

Additional observations from a re-analysis of the deposited data

How the results depend on the processing

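No proteasome gene was called in either direction under any alternative that kept all 6 mice. Leaving out each mouse gave 0 to 1 members called lower (*Psmd14* without mouse 3.2 and *Psme2*, at -0.803, without mouse 3.3) and 0 higher. All tested genes called numbered 510, then 326 with all gene types, 298 with a 2-fold limit added, and 61 to 761 with 1 mouse left out (61 without mouse 1.4, 66 without 1.2, 76 without 1.1). The median of the constitutive members turned from -0.083 to 0.002 with quantile normalization, under which all genes moved from -0.063 to 0.017. *Psmb6* turned positive with median-of-ratios scaling (0.025), quantile normalization (0.013) and without mouse 1.4 (0.012) or 3.5 (0.066), and *Psmc3ip* turned negative without mouse 3.3 (-0.237). The cause was not tested. With either scaling, 3 members were higher and 2 lower at an unadjusted p under 0.05, in place of 3 and 6. The log2 ratio of *Psmb8* to *Psmb5* ranged from -1.076 to -0.587 with 1 mouse left out, that of *Psmb9* to *Psmb6* from -0.766 to -0.11, and that of *Psmb10* to *Psmb7* from -1.007 to -0.397. Called marker genes missed the threshold under 37 of their alternatives, most often without a *Hoxa9*/MTV mouse. No paired analysis was possible because the mouse numbers are not shared between the cohorts. The level ratios in *Hoxa9*/MTV mice moved from 2.6 to 5.6 for *Psmb8* to *Psmb5*, from 1.36 to 1.05 for *Psmb9* to *Psmb6* and from 3.81 to 1.51 for *Psmb10* to *Psmb7* when reads were counted per window within 1 exon, an alternative chosen after seeing the data. *Psme2*, with 8 to 37 reads, is limited by counting error.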
